A study of Mus musculus with 12 samples.

Results

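The genes described here take fatty acids apart for energy, make and use ketone bodies, or belong to the PPAR system that regulates those steps. They were chosen as a list of 38 gene symbols with these roles, and all 38 were found by symbol among the 54532 genes of the expression table. Of the 38, 35 passed the filter on low values (FPKM not below 1 in 3 or more of the 12 libraries), as did 12740 genes in all. *Acot1*, *Pdk4* and *Angptl4* did not pass and are given as levels only. *Acaa1b* and *Ppara* reached an FPKM of 1 in control libraries only, so they passed because control was high. They are given as levels only, and the counts below are over the other 33. FPKM here counts the sequenced fragments of a gene, divided by the length of the gene and by a scaling factor of the library.

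Colonoids, which are organoids grown from mouse colonic epithelial stem cells, were exposed to hemin (200 µM) or vehicle for 24 hours before RNA sequencing, with 3 libraries in each of 4 groups. Controls were *Hmox1* fl/fl, in which the gene for heme oxygenase 1 carries loxP sites and is left intact. The other genotype, *Hmox1* ΔIEC, carries the same floxed alleles together with a Cre transgene driven by *Vil1*, so that deletion is directed to the epithelium along the whole bowel, and all mice were on a C57BL/6 background. The labels do not say how many animals or lines the 3 libraries of a group came from, so p-values measure only the spread between these libraries.

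*Hmox1* was at 7.45 ± 0.541 FPKM (SD, n = 3) in controls with vehicle and 456 ± 64.6 with hemin, and at 2.52 ± 0.547 and 1314 ± 68.1 in the libraries labelled KO. The value in these libraries is below control with vehicle and above it with hemin, and they are named labelled-KO throughout. Whole-gene FPKM carry no information on which exons were read, so the value with hemin cannot decide whether the label holds. Replicate 3 labelled KO with hemin has its genotype written as floxed alleles with Cre and not as KO. The libraries held between 11648801 and 25101868 fragments. A single short RNA gene, *Gm23935*, took 16.8% of the FPKM sum in replicate 1 of control with vehicle, 29.0% in replicate 1 of control with hemin and 21.0% in replicate 2 of labelled-KO with hemin, against 1.18% to 2.81% elsewhere, and counts without these 3 libraries are given beside each comparison. Shares over all genes were counted only in the fit of all 12 libraries on the scale of the deposited values. Summed FPKM of 6 epithelial genes was between 4117 and 7248 in every library, and their moves with hemin are given below. The sum of 5 fibroblast genes was 0.0791 or less.

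Beta-oxidation removes carbon from a fatty acid in repeated cycles of dehydrogenation, hydration, a second dehydrogenation and thiolysis. Long-chain fatty acids are first activated to acyl-CoA and then carried into mitochondria as carnitine esters by CPT1, the carrier SLC25A20 and CPT2, while peroxisomes shorten other chains. The nuclear receptors PPARα and PPARγ bind fatty acids and their derivatives, and pair with RXR on direct repeats of the AGGTCA half-site. Colonocytes are known for using butyrate, a bacterial fatty acid, as a fuel.

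The promoters shown here belong to the 3 members with a log2 fold change above 1 after hemin in labelled-KO colonoids (*Cpt1a*, *Slc25a20* and *Acadl*) and to *Pparg*, the PPAR factor called lower in labelled-KO colonoids under vehicle. Each run is the RefSeq sequence (GRCm38.p6) of 300 bases around an annotated start, most of them upstream of it, read 5′ to 3′ on the strand of the gene. Capitals mark the half-site AGGTCA, or TGACCT where it lies on the opposite strand. The windows are *Cpt1a* at chr19:3323051-3323350 (plus strand), *Slc25a20* at chr9:108661886-108662185 (plus), *Acadl* at chr1:66863260-66863559 (minus) and 2 starts of *Pparg* at chr6:115360894-115361193 and chr6:115362099-115362398 (plus).
Cpt1a: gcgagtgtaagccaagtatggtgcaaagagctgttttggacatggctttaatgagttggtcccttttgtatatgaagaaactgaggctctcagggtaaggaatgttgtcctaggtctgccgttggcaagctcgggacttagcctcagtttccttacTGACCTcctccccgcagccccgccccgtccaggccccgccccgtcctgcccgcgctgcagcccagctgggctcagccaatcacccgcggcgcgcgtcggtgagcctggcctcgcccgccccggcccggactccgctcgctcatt
Slc25a20: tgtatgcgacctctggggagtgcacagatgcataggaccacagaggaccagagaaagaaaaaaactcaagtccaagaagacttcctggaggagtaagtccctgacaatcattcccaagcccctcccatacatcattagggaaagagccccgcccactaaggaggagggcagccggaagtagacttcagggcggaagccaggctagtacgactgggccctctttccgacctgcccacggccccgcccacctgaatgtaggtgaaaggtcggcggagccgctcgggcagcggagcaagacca
Acadl: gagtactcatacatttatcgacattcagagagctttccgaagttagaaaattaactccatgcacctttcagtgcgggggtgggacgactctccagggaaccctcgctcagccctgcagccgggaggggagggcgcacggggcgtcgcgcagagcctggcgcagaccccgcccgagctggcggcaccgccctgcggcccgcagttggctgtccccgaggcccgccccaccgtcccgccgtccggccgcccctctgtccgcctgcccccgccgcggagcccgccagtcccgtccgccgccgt
Pparg, first start: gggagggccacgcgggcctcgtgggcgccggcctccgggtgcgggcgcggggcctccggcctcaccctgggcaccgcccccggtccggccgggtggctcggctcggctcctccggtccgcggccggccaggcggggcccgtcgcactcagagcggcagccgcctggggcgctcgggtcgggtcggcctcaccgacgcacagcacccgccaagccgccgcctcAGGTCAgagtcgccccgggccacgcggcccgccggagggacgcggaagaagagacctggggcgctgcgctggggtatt
Pparg, next start: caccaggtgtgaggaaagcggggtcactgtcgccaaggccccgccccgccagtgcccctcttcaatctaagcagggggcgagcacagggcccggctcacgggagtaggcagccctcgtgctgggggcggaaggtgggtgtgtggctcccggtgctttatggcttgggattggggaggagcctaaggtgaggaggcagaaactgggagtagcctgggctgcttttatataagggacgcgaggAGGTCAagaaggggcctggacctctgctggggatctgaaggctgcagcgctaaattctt

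*Cpt1a* held 1 half-site, at position −94 from the start, and the 2 *Pparg* windows held 1 each, at −28 and −9. No half-site lay in the windows of *Slc25a20* and *Acadl*. Promoter windows were found for 33 of the 38 members, with 37 windows between them, and the missing ones are *Acaa2*, *Angptl4*, *Decr1*, *Acat1* and *Crat*. AGGTCA, searched on both strands, lay in 7 of the 37 windows (18.9%), which belong to *Acadm*, *Acadvl*, *Cpt1a*, *Echs1*, *Plin2* and *Pparg*. The share over all 32851 windows of the same length was 16.3%. The direct repeat DR1, which is AGGNCA followed after 1 base by AGGNCA and can overlap the half-site motif, was in 0 of the 37 windows and in 0.381% of all windows, and TCAAGGTCA, which contains the half-site, in 0 of 37 and 0.423%. These are matches of letters and were not tested as binding sites.

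The first question was how hemin changed these genes in controls, which keep HO-1. Members rose more often than they fell, by small amounts. Of the 33, 11 rose and 5 fell at an adjusted p-value under 0.05 (limma with Benjamini-Hochberg adjustment over all 12740 genes), where 23.2% of all genes rose and 26.7% fell. The 11 are 33.3% of the 33 and the 5 are 15.2%. Their median log2 fold change was 0.09, on the log2(FPKM + 1) scale used throughout, against −0.013 over all genes. No member was called, meaning an absolute log2 fold change above 1 as well, where 2.17% of all genes were called higher and 5.93% lower. The 3 libraries of the hemin group lay above all vehicle libraries for 12 members and below for 5, against 24.6% and 27.8% of all genes. Rescaled to TPM, 9 members rose and 8 fell, with a median of −0.0091 against −0.12 over all genes. Without the 3 *Gm23935*-rich libraries 9 rose, *Crot* past a log2 fold change of 1, and 6 fell, with a median of 0.07 against −0.018. Of 6 absorptive colonocyte markers, *Car1*, *Slc26a3* and *Krt20* rose, *Car4* and *Aqp8* fell (*Aqp8* 4.27-fold) and *Guca2a* did not pass, and their summed FPKM, most of it *Car1*, was between 2742 and 2989 with vehicle and between 4835 and 7273 with hemin. *Mki67* and the stem cell gene *Ascl2* fell, and with *Lgr5* and *Smoc2*, which reached an FPKM of 1 with vehicle only, they summed to between 49.9 and 55.6 with vehicle and between 15.2 and 18.5 with hemin. Of 4 goblet cell genes *Muc2* (−0.80), *Fcgbp* (−0.90) and *Spdef* (−2.67) fell and *Tff3* did not pass, with sums between 1085 and 1319 with vehicle and between 704 and 1061 with hemin. Of 6 epithelial genes *Epcam* (1.72-fold), *Cdh1* (1.45-fold) and *Vil1* (1.79-fold) rose and 0 fell. The part of these markers in the result was not tested.

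In the labelled-KO colonoids 21 members rose and 5 fell on the scale of the deposited values, which is 63.6% and 15.2% of the 33, where 29.9% of all genes rose and 30.4% fell. The median log2 fold change was 0.26 against −0.0019 over all genes. *Cpt1a*, *Slc25a20* and *Acadl* were called higher and none lower, where 4.87% of all genes were called higher and 8.07% lower. Hemin and vehicle groups did not overlap for 23 members on the higher side and 6 on the lower, against 37.2% of all genes on each side. The counts depended on the scaling, since TPM left 10 members higher and 8 lower, beside 9 and 8 in controls on that scale. TPM set the median of all genes to −0.21 and that of the members to 0.044. The share of all genes that rose or fell with TPM was not counted. *Etfdh* (0.20 on the deposited scale), *Hadha* (0.18) and *Acsl1* (0.19), none larger than this move of all genes, changed sign with TPM. *Acadl* was at 0.92 with TPM. Without the *Gm23935*-rich libraries 15 rose and 4 fell, with a median of 0.29 against 0 over all genes. No share over all genes was counted in that smaller fit. Of the absorptive markers *Car1* and *Krt20* rose and *Car4*, *Guca2a* and *Slc26a3* fell in the same comparison, and the sum of all 6 went from between 1998 and 2049 to between 3380 and 4227 FPKM. *Mki67* and the stem cell genes went in sum from between 73.9 and 77.2 to between 22.0 and 27.6, and 4 goblet cell genes from between 1214 and 1255 to between 216 and 270. Of 6 epithelial genes *Epcam* (1.98-fold), *Cdh1* (1.76-fold), *Vil1* (2.44-fold), *Krt8* and *Cdx2* rose and *Krt18* fell. The part of all these markers in the result was not tested, and in bulk RNA fewer cells of a type and less RNA per cell cannot be told apart.

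**Figure D1:**
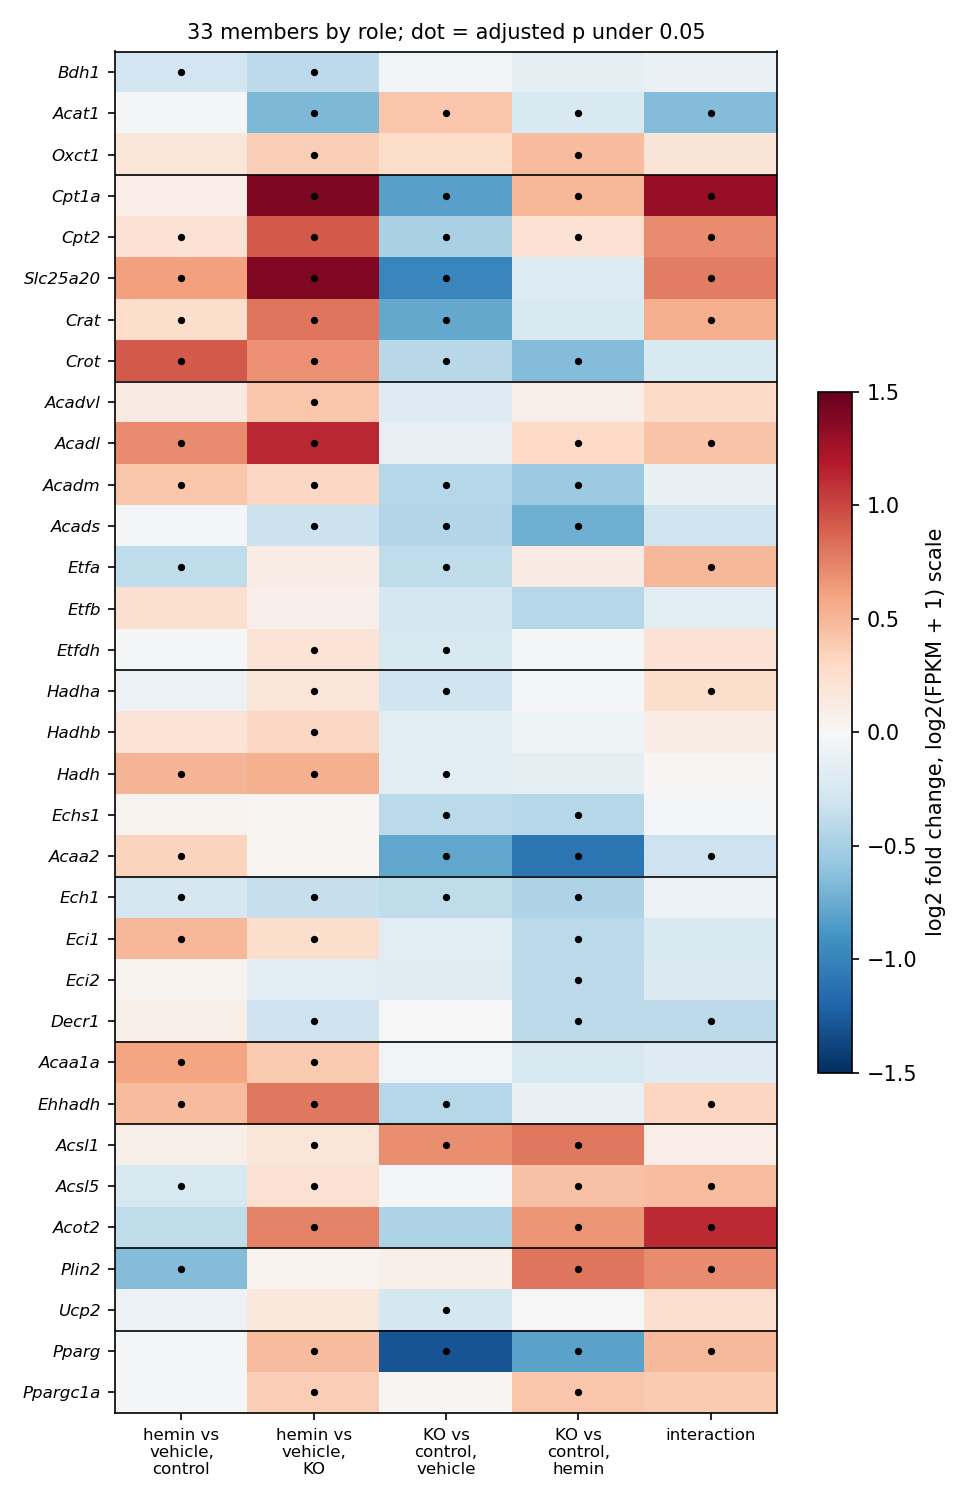
Log2 fold change of 33 members (rows, grouped by role with lines between roles) in the 5 comparisons (columns), on the log2(FPKM + 1) scale, with colour from −1.5 (blue) to 1.5 (red) and a dot at an adjusted p under 0.05. The second column (hemin in labelled-KO colonoids) holds 21 rises and the third (genotypes under vehicle) 17 decreases.

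All 5 genes of the carnitine shuttle rose with hemin in labelled-KO colonoids (median log2 fold change 0.92) and 4 of 5 in controls (median 0.26), where 29.9% and 23.2% of all genes rose. *Cpt1a* (ENSMUSG00000024900; mm10 chromosome 19, 3323301 to 3385732), which encodes the rate-limiting enzyme of mitochondrial fatty acid entry, was at 58.2, 59.1 and 59.2 FPKM in controls with vehicle and at 62.6, 61.2 and 65.4 with hemin. In labelled-KO libraries it was at 33.1, 33.0 and 33.2 FPKM with vehicle and at 88.3, 91.5 and 88.3 with hemin. The labelled-KO group was thus below every control library with vehicle and above every one with hemin. Its level rose 2.70-fold in labelled-KO colonoids (log2 fold change 1.41, SE 0.047, limma adjusted p = 1.9e-09), while the control difference was 1.07-fold (0.10, adjusted p = 0.11). On the TPM scale the control value was −0.0091, where the median of all genes was −0.12.

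*Slc25a20* (ENSMUSG00000032602; chromosome 9, 108662088 to 108684641) encodes the carrier that passes acylcarnitines through the inner mitochondrial membrane. Control libraries held 24.1, 27.4 and 25.7 FPKM with vehicle and 42.8, 39.1 and 37.8 with hemin, and labelled-KO libraries held 12.5, 12.7 and 12.5 with vehicle and 38.2, 30.2 and 35.4 with hemin. Hemin raised it in both genotypes without overlap, 1.55-fold in controls (log2 0.61, limma adjusted p = 1.5e-04) and 2.76-fold in labelled-KO (1.39, adjusted p = 2.1e-07). Under hemin the 2 genotypes overlapped (−0.21, adjusted p = 0.091).

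*Cpt2*, which turns acylcarnitine back to acyl-CoA inside mitochondria, rose 1.17-fold in controls and 1.93-fold in labelled-KO colonoids. *Crat*, an acetyltransferase for short acyl groups, rose 1.21-fold and 1.87-fold. *Crot*, the octanoyltransferase of peroxisomes, rose 2.02-fold in controls and 1.73-fold in labelled-KO, and its interaction of −0.23 did not pass (limma adjusted p = 0.37).

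Under vehicle all 5 shuttle genes were lower in labelled-KO colonoids (median −0.77), where 16.8% of all genes were, from a log2 fold change of −0.42 for *Crot* to −0.98 for *Slc25a20*. With hemin *Cpt1a* (0.50) and *Cpt2* (0.22) were higher in labelled-KO than in control and *Crot* (−0.65) was lower, with adjusted p-values from 1.1e-05 to 0.033. *Cpt1a* and *Cpt2* were the 2 members that were lower under vehicle and higher under hemin.

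**Figure D2:**
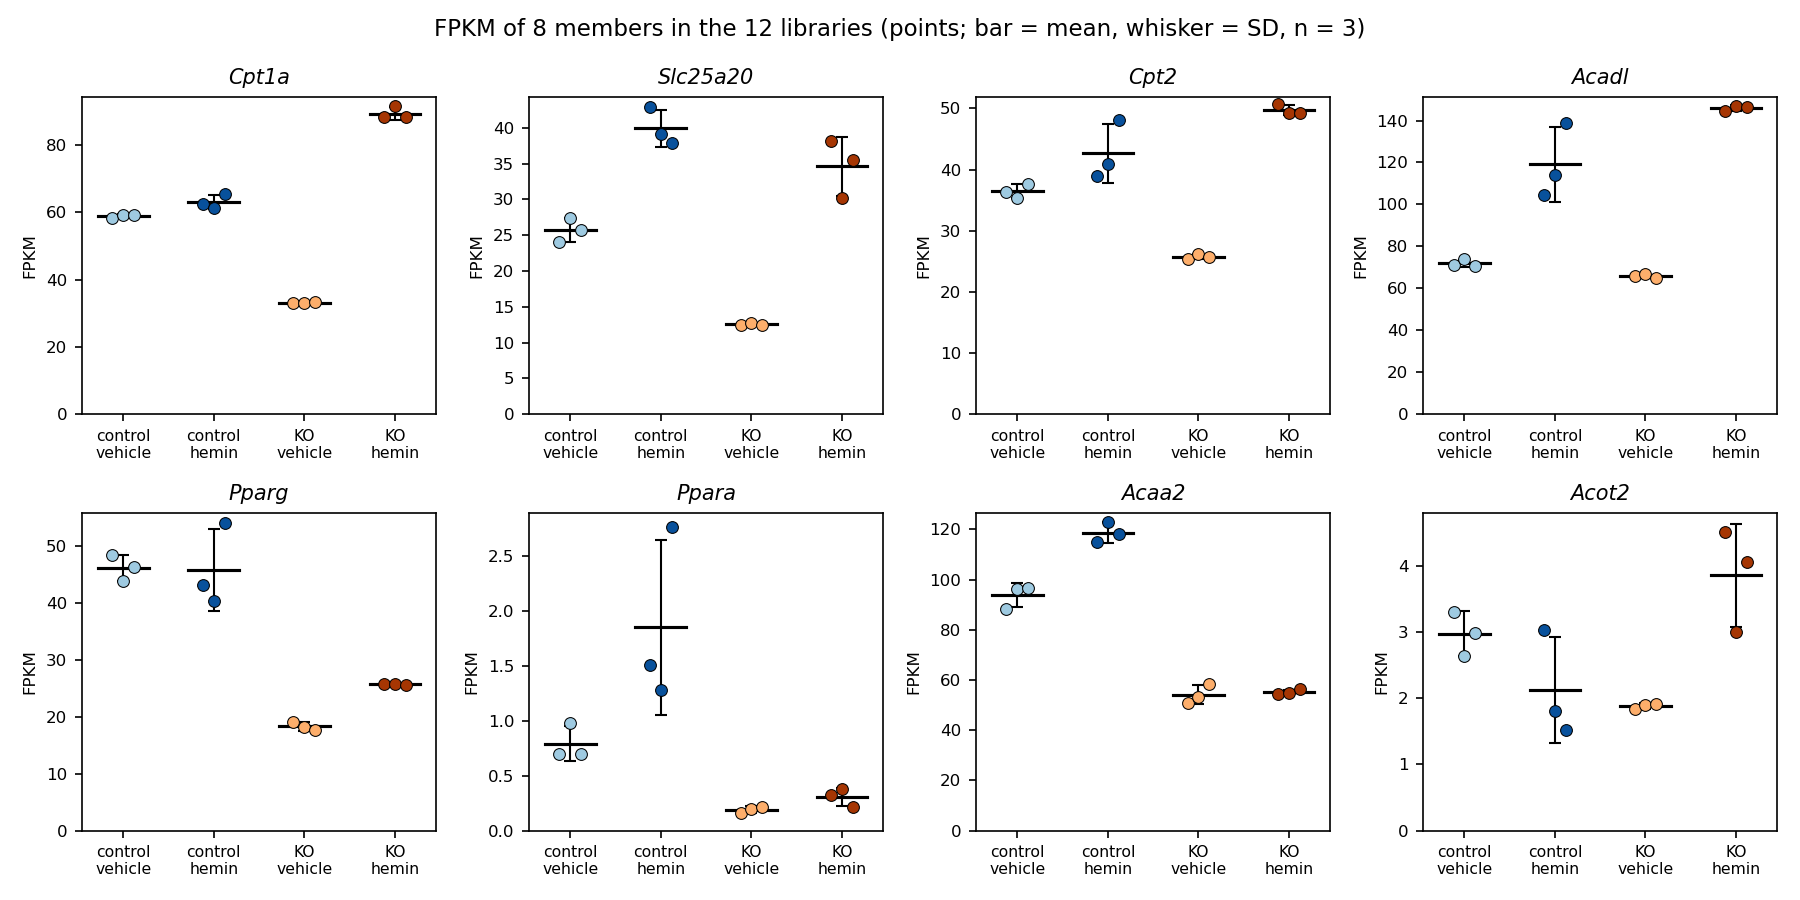
FPKM of 8 members in each library (points) of the 4 groups, with the mean (bar) and SD (whisker) of 3 libraries, each panel on its own linear axis from 0. *Cpt1a* in labelled-KO colonoids lies near 33 FPKM with vehicle and between 88.3 and 91.5 with hemin, below and above all controls, while *Pparg*, *Ppara* and *Acaa2* are below control in both treatments.

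The acyl-CoA dehydrogenases, each for a range of chain lengths, carry out the first dehydrogenation. *Acadl* (ENSMUSG00000026003; chromosome 1, 66830839 to 66863277), for long chains, was at 71.3, 73.9 and 70.7 FPKM in controls with vehicle and at 104, 114 and 139 with hemin. It was at 65.9, 67.1 and 64.9 FPKM in labelled-KO colonoids with vehicle and at 144, 147 and 146 with hemin. Every hemin library was above every vehicle library in both genotypes, at 1.65-fold in controls (log2 0.71, limma adjusted p = 5.9e-05) and 2.21-fold in labelled-KO (1.13, adjusted p = 1.0e-06). *Acadm*, for medium chains, also rose in both genotypes (1.35-fold and 1.25-fold). *Acads*, for short chains, fell in labelled-KO colonoids (−0.33, adjusted p = 0.022) and was at −0.03 in controls (adjusted p = 0.82). *Acadvl*, for very long chains, rose in labelled-KO (0.42, adjusted p = 0.020), and its interaction did not pass (0.28, adjusted p = 0.33).

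The electron transfer flavoprotein takes electrons from these dehydrogenases to the respiratory chain. *Etfa*, its alpha subunit, fell in controls from 80.6, 85.7 and 81.6 FPKM to 66.5, 69.7 and 54.2 (limma adjusted p = 0.0031) and stood at 63.2 ± 2.30 and 68.7 ± 2.20 FPKM (SD, n = 3) in labelled-KO without and with hemin. *Etfdh*, which hands the electrons to ubiquinone, rose in labelled-KO (0.20, adjusted p = 0.042) with the change of sign on the TPM scale given above. *Etfb*, the beta subunit, passed in none of the comparisons. Its control hemin libraries ranged from 8.68 to 20.0 FPKM.

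Of the hydratase, dehydrogenase and thiolase steps in mitochondria, *Hadh*, the 3-hydroxyacyl-CoA dehydrogenase for shorter chains, rose by nearly the same factor in both genotypes (1.44-fold and 1.46-fold, interaction 0.02, limma adjusted p = 0.89). *Hadha* and *Hadhb*, the subunits of the trifunctional protein, rose 1.14-fold and 1.26-fold in labelled-KO (*Hadha* with a change of sign on the TPM scale) and did not pass in controls (0.941-fold and 1.17-fold), and the interaction passed for *Hadha* alone (0.26, adjusted p = 0.024). *Echs1*, a hydratase, passed in neither genotype with hemin. *Acaa2* (ENSMUSG00000036880), the thiolase that closes the cycle, was at 88.2, 96.3 and 96.8 FPKM in controls with vehicle and rose to 115, 123 and 118 with hemin (limma adjusted p = 0.0012). In labelled-KO libraries it was at 50.9, 53.3 and 58.4 FPKM with vehicle and at 54.4, 55.0 and 56.3 with hemin (1.02-fold, adjusted p = 0.73). Both labelled-KO groups were below all 6 control libraries, and the genotypes differed 2.15-fold under hemin (log2 −1.09, adjusted p = 2.7e-07).

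Double bonds need extra enzymes, of which 4 were measured. *Ech1* fell with hemin in both genotypes (−0.26 and −0.35) and *Eci1* rose in both (0.50 and 0.26). *Decr1*, the dienoyl-CoA reductase, fell in labelled-KO from between 10.0 and 10.1 FPKM to between 7.77 and 8.26 (−0.31, limma adjusted p = 0.0013) and was at 0.08 in controls. Under hemin all 4 (*Ech1*, *Eci1*, *Eci2* and *Decr1*) were lower in labelled-KO than in control, by log2 fold changes between −0.39 and −0.47, where 14.7% of all genes were, and under vehicle 1 of the 4 was.

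The peroxisomal members were *Ehhadh*, *Acaa1a* and *Acaa1b*. *Ehhadh*, the bifunctional enzyme, rose 1.43-fold in controls and 1.84-fold in labelled-KO. *Acaa1a*, a thiolase, rose 1.54-fold and 1.33-fold. *Acaa1b* (ENSMUSG00000010651; chromosome 9, 119148023 to 119157093), its near copy, had 35, 62 and 83 fragments in controls with vehicle and 32, 53 and 38 with hemin, but 1, 3 and 1 in labelled-KO with vehicle and 7, 12 and 1 with hemin. Every labelled-KO library was below every control library. Of all stretches of 50 bases in *Acaa1b* transcripts, 30.5% also occur in *Acaa1a*, so reads of the pair may have been split or dropped in counting and the level of *Acaa1b* is uncertain.

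The ketone enzymes did not move as a block. *Bdh1*, which interconverts acetoacetate and beta-hydroxybutyrate, fell in controls from 37.3 ± 1.69 to 30.3 ± 2.01 FPKM (SD, n = 3) and in labelled-KO from 36.1 ± 1.77 to 27.2 ± 0.630. *Acat1*, the acetoacetyl-CoA thiolase, stayed at 29.0 ± 2.48 and 28.4 ± 0.720 FPKM in controls (limma adjusted p = 0.76). In labelled-KO libraries *Acat1* fell from 38.5, 38.3 and 40.0 FPKM to 23.4, 25.0 and 23.6 (−0.68, adjusted p = 5.2e-06), which took it from above all control libraries with vehicle to below all of them with hemin. *Oxct1*, the enzyme that activates ketone bodies for use, rose in labelled-KO from 70.0 ± 1.47 to 91.0 ± 3.54 FPKM (0.37, adjusted p = 0.0087) and was at 0.18 in controls (adjusted p = 0.18).

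Among the enzymes that make or split acyl-CoA, *Acsl1* was low and higher in labelled-KO, and was the 1 member higher in that genotype under both treatments. Its levels were 2.29 ± 0.163 and 2.51 ± 0.211 FPKM (SD, n = 3) in controls and 4.35 ± 0.191 and 5.08 ± 0.198 in labelled-KO, without and with hemin. *Acsl5*, the main intestinal synthetase, was the 1 member that hemin moved in opposite directions past the test, from 34.8 ± 1.35 down to 29.4 ± 1.58 FPKM in controls and from 34.1 ± 0.887 up to 40.0 ± 1.24 in labelled-KO. *Acot2* (ENSMUSG00000021226; chromosome 12, 83987861 to 83993873), a mitochondrial thioesterase, was at 3.31, 2.64 and 2.98 FPKM in controls with vehicle and 3.03, 1.81 and 1.52 with hemin, and at 1.84, 1.90 and 1.92 in labelled-KO with vehicle and 4.52, 3.00 and 4.06 with hemin. The labelled-KO libraries separated by treatment and the control libraries overlapped. Its cytosolic neighbour *Acot1* had 10 to 74 fragments in each library and was below the filter. Of the 50-base stretches of *Acot2*, 24.5% occur in *Acot1*, and of *Acot1* 13.6% in *Acot2*, so the division between the pair is uncertain.

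Of the PPAR targets outside the oxidation chain, *Plin2*, a coat protein of lipid droplets, fell with hemin in controls from 29.7, 27.3 and 28.5 FPKM to 19.5, 16.7 and 17.5 (−0.65, limma adjusted p = 9.3e-05). In labelled-KO libraries *Plin2* was at 29.4, 32.3 and 29.8 FPKM with vehicle and 35.1, 28.3 and 32.2 with hemin, with overlap (adjusted p = 0.58). *Ucp2*, an uncoupling protein homologue, was between 104 and 134 FPKM in all 12 libraries and passed only in the genotype comparison under vehicle (−0.26, adjusted p = 0.012). *Pdk4*, which limits entry of pyruvate, had between 0 and 9 fragments per library. *Angptl4*, an inhibitor of lipoprotein lipase, had 9, 9 and 7 fragments in labelled-KO with hemin and 0 to 3 in every other library, at or under the floor of 3 fragments. Both genes, standard PPAR targets in other tissues, were at 3 fragments or fewer in 9 of 12 libraries.

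Of the PPAR factors and coactivator among the members, *Pparg* had the highest FPKM. *Pparg* (ENSMUSG00000000440; chromosome 6, 115360951 to 115490399) was at 48.4, 43.8 and 46.4 FPKM in controls with vehicle and at 43.2, 40.3 and 54.1 with hemin. Labelled-KO libraries were at 19.1, 18.1 and 17.7 FPKM with vehicle and 25.8, 25.8 and 25.6 with hemin. Labelled-KO colonoids were below every control library in both treatments, 2.52-fold under vehicle (log2 −1.29, limma adjusted p = 1.2e-06) and 1.78-fold under hemin (−0.80, adjusted p = 5.8e-05). Hemin raised it in labelled-KO (log2 0.47, adjusted p = 0.0012), and control libraries with and without hemin overlapped (adjusted p = 0.87). *Ppara* (ENSMUSG00000022383; chromosome 15, 85734983 to 85802819) was near the filter, at 0.695, 0.976 and 0.702 FPKM in controls with vehicle and 1.51, 1.28 and 2.77 with hemin, and at 0.159, 0.196 and 0.217 in labelled-KO with vehicle and 0.326, 0.377 and 0.218 with hemin. Its 10 to 124 fragments per library make these levels coarse. The 3 control libraries with hemin, the ones through which it passed the filter, were above all others and every labelled-KO library was below every control library. *Ppargc1a*, a coactivator of mitochondrial genes, rose in labelled-KO from 2.47 ± 0.405 to 3.46 ± 0.277 FPKM (adjusted p = 0.029) and was at 2.42 ± 0.387 and 2.38 ± 0.511 in controls.

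Whether the genotypes differed without added heme was the next comparison. Under vehicle 17 of the 33 members were lower in labelled-KO colonoids and 2 (*Acat1* and *Acsl1*) higher, which is 51.5% and 6.06%, where 16.8% of all genes were lower and 17.4% higher. The median was −0.26 against 0.019 over all genes. *Pparg* was called lower and no member higher, where 3.27% of all genes were called lower and 3.53% higher. The groups did not overlap for 22 members on the lower side and 3 on the higher, against 26.9% and 30.6% of all genes. Without the *Gm23935*-rich libraries 15 were lower and 2 higher (median −0.28 against 0.024 over all genes). By role, those lower were 5 of 5 shuttle genes, 4 of 7 acyl-CoA dehydrogenase and electron transfer genes, 4 of 5 of the later mitochondrial steps and 1 of 4 isomerases and reductase. None of the 3 ketone enzymes and none of the 3 synthetases and thioesterases tested was lower, and each of these groups held 1 that was higher. The other 3 lower members were *Ehhadh*, *Ucp2* and *Pparg*.

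Under hemin 11 of the 33 members were lower in labelled-KO and 9 higher, which is 33.3% and 27.3%, where 14.7% and 19.7% of all genes were. The median was −0.14 against 0.037. *Acaa2* was called lower and none higher, where 2.91% of all genes were called lower and 3.10% higher. The groups did not overlap for 14 members on the lower side and 8 on the higher, against 17.9% and 23.0% of all genes. On the TPM scale 15 were lower and 7 higher (median −0.19 against −0.0048 over all genes). Without the *Gm23935*-rich libraries 10 were lower and 5 higher (median −0.12 against 0.039). The genotype comparisons under vehicle and under hemin use different libraries, and 7 members were lower in both (*Acaa2*, *Acadm*, *Acads*, *Crot*, *Ech1*, *Echs1* and *Pparg*), which is 21.2% of the 33, where 6.96% of all genes were.

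Markers of position along the colon separated the genotypes as well. *Hoxb13*, a gene of the distal colon, had 0 fragments in all 6 control libraries and stood at 110 ± 5.35 and 132 ± 2.96 FPKM (SD, n = 3) in labelled-KO without and with hemin. *Hoxd13* also had 0 fragments in all controls and was at 59.1 ± 1.01 and 32.1 ± 1.33 FPKM. *Cdx2*, an intestinal identity factor, was between 142 and 245 FPKM in controls and between 47.3 and 88.2 in labelled-KO. Cell type markers differed too. Under hemin all 4 goblet cell genes were lower in labelled-KO (*Muc2* 9.13-fold and *Spdef* 11.1-fold) and under vehicle 2 of 4 were lower and 0 higher. Of the 6 absorptive markers, *Guca2a* (5.92-fold), *Car1* and *Krt20* were lower and *Car4* (31.0-fold), *Aqp8* (9.69-fold) and *Slc26a3* higher under vehicle. Under hemin *Guca2a* (25.9-fold), *Car1* and *Slc26a3* were lower, *Aqp8* (59.6-fold) and *Car4* (5.84-fold) higher, and *Krt20* did not pass. Of *Mki67* and the 3 stem cell genes, *Ascl2* (5.55-fold), *Smoc2* (2.66-fold) and *Mki67* (1.31-fold) were higher under vehicle, and under hemin *Ascl2* and *Mki67* were higher. *Lgr5*, below an FPKM of 1 in every hemin library, stood there at 0.781 ± 0.0707 in control and 0.277 ± 0.0842 in labelled-KO. The part of these markers in the members' differences was not tested. Genotype and the part of the colon from which the lines came cannot be told apart in any of the genotype comparisons above. Of 4 adipocyte markers all were at 3 fragments or fewer in every library, and 4 leukocyte markers summed to between 0.784 and 5.17 FPKM.

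The test of whether hemin acted differently in the genotypes is the interaction, the log2 fold change in labelled-KO minus that in control. It passed for 15 of the 33 members, 12 with a higher value in labelled-KO and 3 with a lower one, which is 36.4% and 9.09%, where 13.3% and 10.5% of all genes passed in these directions. The median was 0.20 against 0.016 over all genes. *Cpt1a* (1.31, SE 0.066, limma adjusted p = 4.7e-07) and *Acot2* (1.12, SE 0.24, adjusted p = 0.0059) were called higher and none lower, where 2.57% of all genes were called higher and 2.56% lower. Without replicate 3 of control with hemin *Acot2* was at 0.98 and 6 members passed lower. The carnitine shuttle gave 4 of its 5 genes, with a median of 0.71. Without the *Gm23935*-rich libraries 8 passed higher and 2 lower (median 0.07 against 0.020 over all genes). The interaction also passed for all 4 goblet cell genes, with log2 values from −1.61 for *Fcgbp* to −2.51 for *Muc2*. It passed for 5 of 6 absorptive markers (*Aqp8* 2.48, *Krt20* 0.64, *Slc26a3* −1.71, *Guca2a* −2.08 and *Car4* −2.75). Of 6 epithelial genes it passed higher for *Cdh1* (0.29), *Krt8* (0.54) and *Vil1* (0.45) and lower for 0. *Ascl2* and *Mki67* did not pass, and *Lgr5* and *Smoc2*, at an FPKM of 1 with vehicle only, are left out. The part of these markers in the members' values was not tested. The 2 hemin comparisons share no library, and 10 members rose in both genotypes (*Acaa1a*, *Acadl*, *Acadm*, *Cpt2*, *Crat*, *Crot*, *Eci1*, *Ehhadh*, *Hadh* and *Slc25a20*), or 30.3%, and 2 fell in both (*Bdh1* and *Ech1*), or 6.06%, where 17.5% of all genes rose and 19.9% fell in both.

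**Figure D3:**
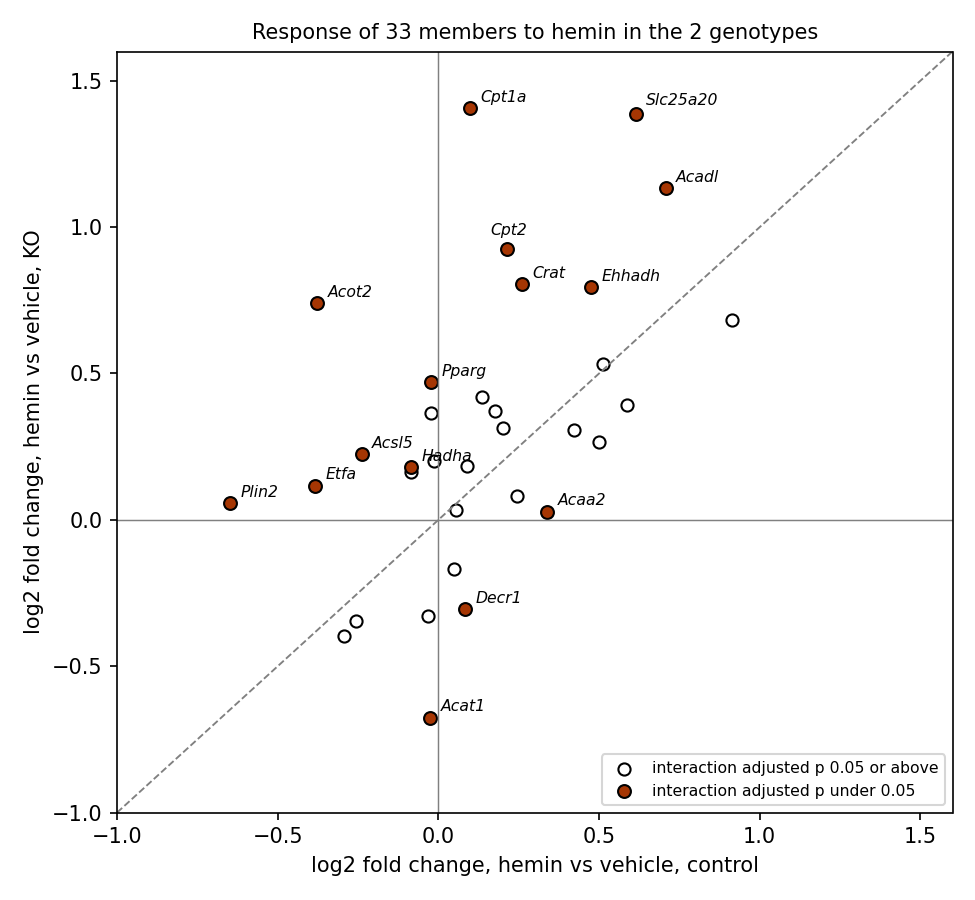
Log2 fold change with hemin of 33 members in control (horizontal axis) and labelled-KO colonoids (vertical axis), on the log2(FPKM + 1) scale, with the diagonal of equal response dashed. Filled and named points are the 15 members whose interaction passed an adjusted p under 0.05. *Cpt1a* (0.10 and 1.41) and *Acot2* (−0.38 and 0.74) lie farthest above the diagonal and *Acat1* (−0.03 and −0.68) farthest below it.

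A list of 68 further genes of the same pathways gives the surroundings, and 54 of them were tested. *Acacb* reached an FPKM of 1 in control libraries only, *Creb3l3* with vehicle only and *Vnn1* in control with vehicle only, so the counts are over the other 51. Of these 19 rose and 18 fell with hemin in controls (37.3% and 35.3%, against 23.2% and 26.7% of all genes), and 16 rose and 17 fell in labelled-KO colonoids (31.4% and 33.3%, against 29.9% and 30.4%, so close to the share over all genes). Between genotypes 10 were higher and 21 lower in labelled-KO under vehicle (19.6% and 41.2%, against 17.4% and 16.8%), and 7 higher and 20 lower under hemin (13.7% and 39.2%, against 19.7% and 14.7%). The interaction passed higher for 9 and lower for 7 (17.6% and 13.7%, against 13.3% and 10.5%). By sublist, peroxisomal enzymes outside the members rose with hemin in 7 of 12 tested in controls and 9 of 12 in labelled-KO, with 1 fall each, and their interaction passed higher for 3 and lower for 0. Other mitochondrial oxidation enzymes rose in 6 of 9 and fell in 1 in controls, and rose in 1 and fell in 4 in labelled-KO, with an interaction that passed higher for 0 and lower for 3. Of 12 PPAR pathway factors and targets 0 rose and 7 fell in controls and 0 rose and 5 fell in labelled-KO. Of the 4 tested genes of ketone synthesis and use, all 4 were lower in labelled-KO under each treatment.

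Named by the size of their change, the acetate-activating enzyme *Acss1* fell from 16.3 ± 1.01 to 4.76 ± 0.927 FPKM (SD, n = 3) in controls and from 24.1 ± 1.05 to 2.99 ± 0.563 in labelled-KO (log2 −2.66, limma adjusted p = 3.3e-08). *Acsm3*, a medium-chain acyl-CoA synthetase, fell 6.03-fold in labelled-KO (adjusted p = 1.3e-09). *Creb3l3*, a fasting-linked transcription factor that works with PPARα, was at 4.50, 3.63 and 5.19 FPKM in controls with vehicle and 0.494, 0.449 and 0.284 with hemin, given as levels since it passed the filter only through vehicle libraries. The lipid droplet gene *Cidec* fell in controls from 7.06, 6.02 and 6.19 FPKM to 1.18, 1.09 and 1.34 and stood between 1.20 and 1.95 FPKM in labelled-KO libraries (interaction 1.44, adjusted p = 1.3e-05).

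Between genotypes *Fabp2*, the intestinal fatty acid-binding protein, was 18.4-fold lower in labelled-KO under vehicle (48.9 ± 5.82 against 2.66 ± 0.530 FPKM, SD, n = 3, limma adjusted p = 2.9e-08) and 54.9-fold lower under hemin (adjusted p = 8.5e-09). *Acacb*, which makes the malonyl-CoA that inhibits CPT1, was at 3.62 ± 0.103 FPKM in controls and 0.318 ± 0.0375 in labelled-KO with vehicle, likewise given as levels since it passed only through controls. *Phyh*, of peroxisomal alpha-oxidation, was 3.29-fold higher in labelled-KO under hemin. *Acox2*, a peroxisomal oxidase for branched chains, fell in controls and rose in labelled-KO (interaction 1.18, adjusted p = 9.2e-05).

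Chosen after their values were seen were *Slc22a5*, *Slc27a4* and *Acot4*. *Slc22a5*, the carnitine importer of the plasma membrane, rose 1.84-fold and 2.79-fold. The fatty acid transporter *Slc27a4* rose 1.72-fold and 2.55-fold, and the peroxisomal thioesterase *Acot4* 2.01-fold and 7.35-fold. The interaction passed for each of these 3 genes (log2 0.52, 0.54 and 1.06, with limma adjusted p-values from 5.7e-04 to 0.047).

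**Figure D4:**
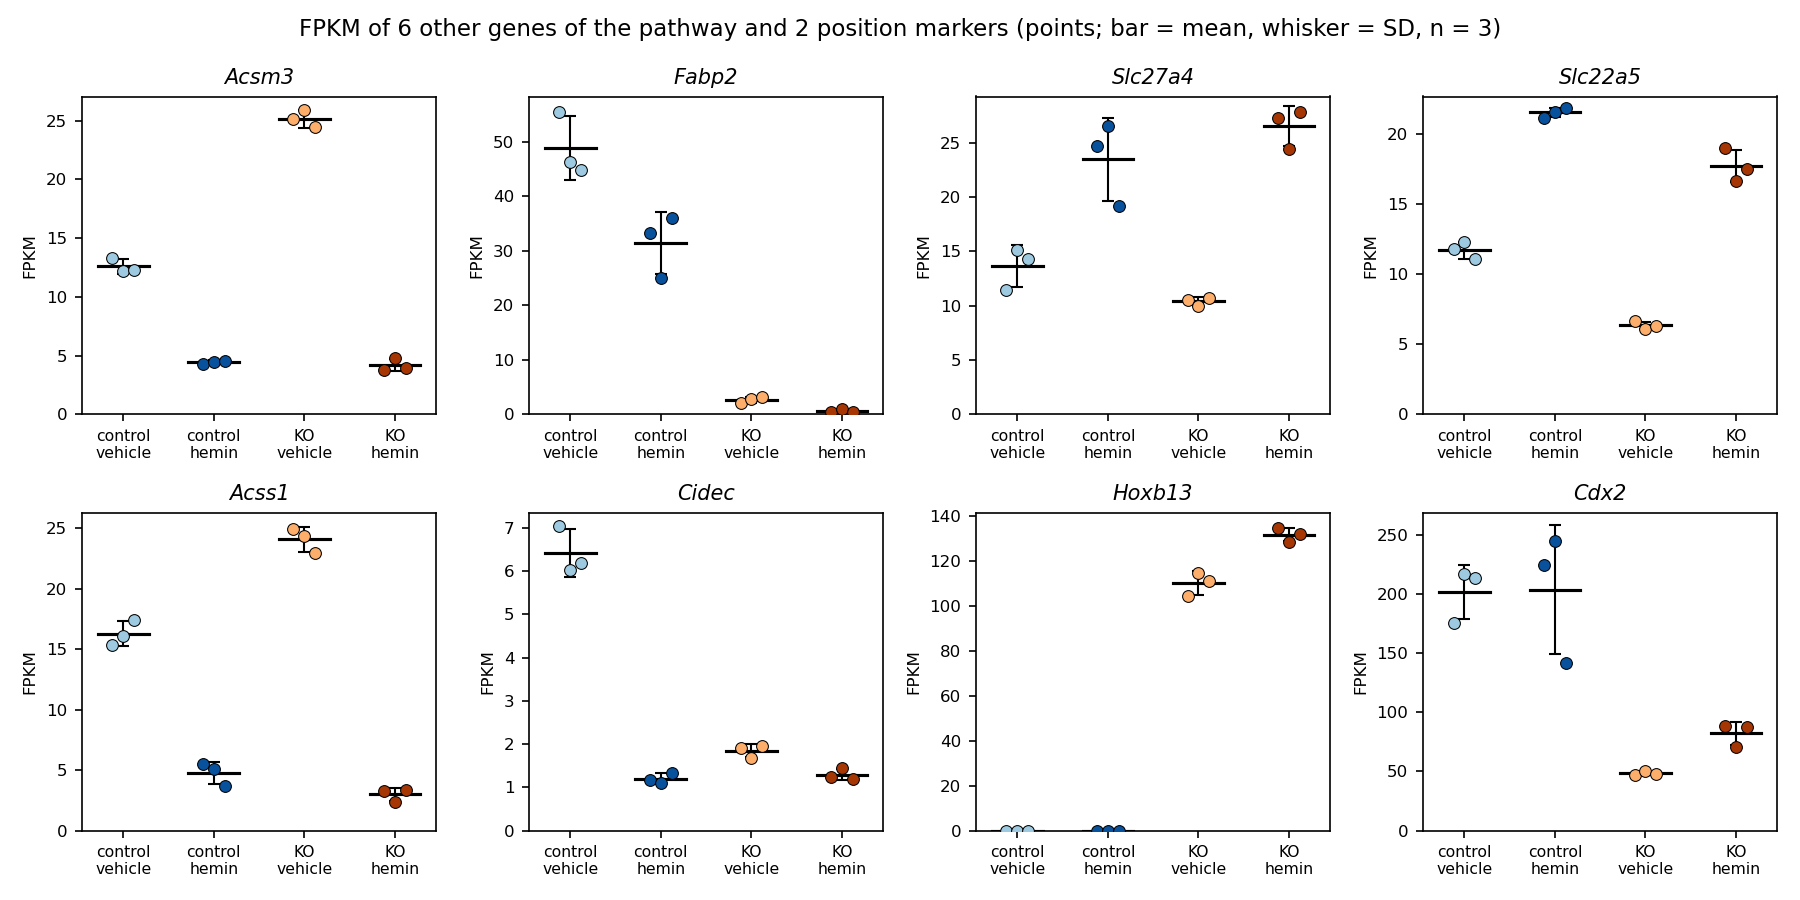
FPKM in each library (points) of 6 genes of the pathway outside the members and of the position markers *Hoxb13* and *Cdx2*, with the mean (bar) and SD (whisker) of 3 libraries, each panel on its own linear axis from 0. *Slc22a5* and *Slc27a4* rise with hemin in both genotypes, *Acss1* and *Acsm3* fall, and *Hoxb13* is at 0 in all control libraries.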

How the data were processed

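The 12 libraries (4 groups of 3) hold poly-A RNA from mouse colonoids. Titles and characteristics in the labels gave group and replicate. The authors deposited FPKM values for 54532 genes with gene coordinates (mm10) and lengths. The submitters' processing notes name fastp, HISAT2 2.0.5 and featureCounts 1.5.0-p3. Times gene length, 100% of the deposited FPKM came out as whole fragments (tolerance 0.01), which were used for the depths (11648801 to 25101868) and for limma-voom. Median-of-ratios factors were equal in all libraries, so the deposited FPKM were already scaled between libraries. The strand setting of the counting is not given in the sources used here.

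The filter kept 12740 genes, those not below an FPKM of 1 in 3 or more libraries. limma 3.58.1 in R 4.3.3 modelled log2(FPKM + 1) by group, without a block and with an intensity trend, two-sided, and p-values were adjusted by Benjamini-Hochberg over all 12740 genes. Members and other pathway genes that reached that FPKM in 1 genotype or 1 treatment only were left out of the counts in the text and given as levels. Fold changes on this scale understate the change of low genes. A gene rose or fell at an adjusted p under 0.05 and was called with an absolute log2 fold change above 1 as well. Folds without a log2 are ratios of mean FPKM. The functions were tested on simulated data. Plots and sequence searches used Python 3.11.15, pandas 2.3.3 and matplotlib 3.10.9. Promoter windows are from RefSeq on GRCm38.p6, and overlap between gene pairs was counted in GENCODE M21 transcripts.

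The members and lists were chosen with earlier results of these data known. Genes named are *Hmox1*, all 38 members (every library for those called in at least 1 comparison), and of 68 other pathway genes the 3 called with the largest change in each comparison, of which 1 is not reported here. Alternatives were a pseudocount of 0.1, no filter, a mean FPKM of at least 5, TPM, limma-voom, the replicate number as a block and each library left out. Leaving out the 3 libraries with *Gm23935* above 10% of the FPKM sum was chosen after seeing the data. Same-numbered libraries did not deviate together (mean r −0.042, range −0.33 to 0.18 over 18 pairs). For libraries of different number the mean r was 0.023 (range −0.39 to 0.34 over 36 pairs).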

Additional observations from a re-analysis of the deposited data

Results flagged for a closer look

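A test of the difference itself found that the hemin response differed between genotypes for 15 of 33 members (limma interaction, adjusted p under 0.05), 12 higher and 3 lower, where 13.3% and 10.5% of all genes passed in these directions. Values are the log2 fold change in labelled-KO minus that in control. In the carnitine shuttle the interaction was 1.31 for *Cpt1a*, 0.77 for *Slc25a20*, 0.71 for *Cpt2* and 0.54 for *Crat*. In the oxidation steps it was 0.43 for *Acadl*, 0.50 for *Etfa*, 0.26 for *Hadha*, −0.31 for *Acaa2*, −0.39 for *Decr1* and 0.32 for *Ehhadh*. It was −0.65 for *Acat1*, 0.46 for *Acsl5*, 1.12 for *Acot2*, 0.71 for *Plin2* and 0.49 for *Pparg*. The weakest of these was *Ehhadh* (adjusted p = 0.042) and the strongest *Cpt1a* (adjusted p = 4.7e-07). *Acot2* shares sequence with *Acot1*, and without replicate 3 of control with hemin its interaction was 0.98. The labelled-KO libraries also differ from controls in the position markers *Hoxb13* and *Hoxd13*, so genotype and position in the colon cannot be told apart here either.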

How the results depend on the processing

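Counts here are over all 35 tested members, *Acaa1b* and *Ppara* included, which passed the filter only through controls. The 101 pairs of a member and a comparison that passed the adjusted p kept their direction under each of the 19 alternatives wherever the gene was tested, except for *Etfdh*, *Hadha* and *Acsl1* after hemin in labelled-KO colonoids on the TPM scale. That scale set the median of all genes in this comparison to −0.21. With TPM 80 of the 101 also stayed past the threshold, against 100 with limma-voom or a pseudocount of 0.1 and 76 of 98 without the *Gm23935*-rich libraries. Same-numbered libraries did not deviate together, which cannot settle whether they were paired by design. With the number as a block, 94 of 101 stayed, and counts of called members were the same as without it (3 higher with hemin in labelled-KO, 2 lower and 3 lower between genotypes under vehicle and hemin, 2 for the interaction). The lower calls include *Acaa1b* under vehicle and *Acaa1b* and *Ppara* under hemin. Over the other 33 members they were 1 under vehicle (*Pparg*) and 1 under hemin (*Acaa2*) without the block.

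Members called higher with hemin in controls numbered 1 at a pseudocount of 0.1, 2 with limma-voom, 1 without the *Gm23935*-rich libraries and 0 to 1 with each library left out, the 1 being without replicate 2 of control with hemin. Members called lower under vehicle numbered 4 at a pseudocount of 0.1, 1 at a mean FPKM of at least 5 and 4 with limma-voom (2 to 3 with each library left out). Under hemin 1 was called higher with limma-voom and 1 lower at a mean FPKM of at least 5. The interaction called 1 at that filter and 1 to 2 with each library left out, the 1 being without replicate 3 of control with hemin, where *Acot2* was at 0.98. On the TPM scale 8 members passed lower with hemin in controls, 10 higher and 8 lower in labelled-KO, and *Acadl* was at 0.92. Between genotypes 1 passed higher under vehicle at a mean FPKM of at least 5, and 5 passed higher under hemin without the *Gm23935*-rich libraries. With each library left out, 2 to 6 passed lower for the interaction, the 6 being without replicate 3 of control with hemin, and 14 to 23 passed higher with hemin in labelled-KO.

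Of the other pathway genes, those called higher with hemin in controls numbered 2 at a pseudocount of 0.1 and 2 with limma-voom. Those called lower numbered 5 with hemin in controls and 3 between genotypes under vehicle at a mean FPKM of at least 5, and 4 under hemin with TPM, with limma-voom and at a pseudocount of 0.1. TPM gave 2 called higher under vehicle and 6 lower for the interaction, and the filter at 5 gave 0 higher for the interaction. The cause of these moves was not tested, other than that the filter at 5 removes low genes such as *Ppara*, *Acaa1b* and *Acot2*. Depth limits *Ppara*, *Acaa1b*, *Pdk4* and *Angptl4*, which rest on few fragments.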
